A study of Mus musculus with 4 samples.

Results

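The claudin genes Cldn2, Cldn3, Cldn4, Cldn5, Cldn7, Cldn15, Cldn18 and Cldn23 were followed across the cells of mouse intestinal adenomas. They were chosen by name, with no measured value in the rule but with earlier results of these data known. They are 8 of the 33 claudin genes among the 27514 genes that the 4 gene tables share. Their transcripts were counted as unique molecular identifiers (UMIs) in 3′ single-cell libraries. Levels are CPM, that is, UMIs summed over all cells of a class in a library and scaled to a total of 1000000 UMIs of those cells. Unless stated otherwise, fold and log2 differences use TMM factors, which allow for differences in composition. They can therefore differ from ratios of the CPM values printed beside them.

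Each library came from several adenomas of 11-week-old C57BL/6 mice, pooled, dissociated and not sorted. The 2 ApcMin libraries had the genotype ApcMin/+;Lef1 +/+. In the 2 VApcMinL libraries, ApcMin/+;Lef1 fl/fl was combined with Villin-Cre. Both groups thus carry the ApcMin allele, a truncation of the Wnt pathway inhibitor Apc. The Villin promoter drives Cre in the intestinal epithelium, so vessels and stroma of these mice keep Lef1. Replicate 1 of each group was made with kit version 2 and replicate 2 with kit version 3, so kit and replicate number are the same split.

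Claudins are membrane proteins that line up into the strands of the tight junction, the seal near the apex of neighbouring epithelial or endothelial cells. Some close the gap between cells, and others form pores that let small ions or water pass. Which claudins a cell makes sets how leaky its layer is, and in the intestine the mix changes from the crypt, where cells divide, to the villus, where they absorb. Cldn2 and Cldn15 form cation pores. Cldn3, Cldn4 and Cldn7 are widespread in epithelia, Cldn5 is the claudin of blood vessels, Cldn18 is known from stomach and lung, and Cldn23 is less studied.

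The classes were set by gates on marker genes that include no claudin. Adenoma-like cells held Wnt targets such as Notum, Nkd1 and Axin2. Crypt-like cells held stem and progenitor markers such as Lgr5 and Smoc2 without adenoma markers. Olfm4, another crypt marker, was not used. It was low in the crypt-like cells of kit 2, at 20.7 CPM in ApcMin replicate 1 and 7.57 in VApcMinL replicate 1, against 1183 in ApcMin replicate 2. Enterocyte-like cells held digestive and lipid transport genes, villus tip-like cells held Ada, Nt5e and Apoa4 in addition, and goblet-like cells held Muc2 and other mucus genes. Endothelial-like cells held vessel genes such as Pecam1 and Kdr. The libraries held 428, 476, 301 and 1862 adenoma-like cells, in the order ApcMin replicate 1, VApcMinL replicate 1, ApcMin replicate 2, VApcMinL replicate 2. All values below keep this order. Crypt-like cells numbered 73, 49, 36 and 77, and endothelial-like cells 127, 68, 9 and 7, so the kit 3 endothelial values rest on few cells.

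Some libraries went against their labels. Lef1, the targeted gene, stood at 9.45, 33.1, 39.8 and 23.8 CPM in adenoma-like cells. In kit 2 it was therefore higher in the library labelled VApcMinL, and in kit 3 it was lower. A 3′ count also takes in transcripts that lack the deleted exons, so it is a weak check of the deletion. All samples are labelled male, but Xist, the RNA of the inactive X chromosome, was at 0, 1217, 0.0827 and 328 CPM in adenoma-like cells, and the Y-linked gene Ddx3y at 31.4, 0, 30.4 and 22.3. The library labelled VApcMinL replicate 1 held no Ddx3y UMI and much Xist, and VApcMinL replicate 2 held both. Genotype and sex cannot be told apart. The libraries held 44660305 to 128247396 UMIs, and 2146 to 4449 cells passed the limits on UMIs and mitochondrial share. The kit 2 libraries shared 26 cell barcodes and the kit 3 libraries 5.

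The genes are spread over the genome, with Cldn3 and Cldn4 as close neighbours. In GRCm38, Cldn4 (chr5:134945119-134946934, minus strand, 1 exon) lies 39279 bases from Cldn3 (chr5:134986214-134987472, plus strand, 1 exon). Cldn15 (chr5:136966616-136975858, plus strand, 4 to 6 exons) is on the same chromosome, 1979143 bases beyond Cldn3. Cldn2 spans chrX:139800828-139811386 (plus strand, 2 exons), Cldn7 chr11:69964779-69967885 (plus strand, 3 to 5 exons) and Cldn5 chr16:18776847-18778262 (plus strand, 1 exon). Cldn18 spans chr9:99689461-99717267 (minus strand, 5 exons per transcript) and Cldn23 chr8:35824712-35826559 (minus strand, 1 to 2 exons). On the opposite strand, Wbscr25 overlaps Cldn3 and Gm16004 overlaps Cldn18, and how the counting used strand is not given in the sources used here.

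The promoters below belong to both pore claudins and to the 2 claudins that were higher in adenoma-like than in crypt-like cells, and they are shown because ApcMin adenomas have high Wnt signalling, which acts through TCF/LEF proteins. Each is the 250 bases before an annotated start (RefSeq, GRCm38.p6), printed 5′ to 3′ in the direction of the gene, with motif matches in capitals.
Cldn4, chr5:134946935-134947184, minus strand: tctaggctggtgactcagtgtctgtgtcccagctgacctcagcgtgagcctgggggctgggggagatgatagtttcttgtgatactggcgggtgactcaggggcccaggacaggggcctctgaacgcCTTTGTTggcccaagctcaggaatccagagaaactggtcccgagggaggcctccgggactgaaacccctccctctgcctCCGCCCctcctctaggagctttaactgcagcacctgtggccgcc
Cldn18, inner of 2 annotated starts, chr9:99710064-99710313, minus strand: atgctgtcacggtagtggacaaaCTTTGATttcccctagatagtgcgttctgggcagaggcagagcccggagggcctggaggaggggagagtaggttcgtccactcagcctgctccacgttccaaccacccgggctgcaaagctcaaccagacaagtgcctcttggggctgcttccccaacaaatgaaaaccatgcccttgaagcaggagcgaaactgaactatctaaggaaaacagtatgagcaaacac
Cldn15, chr5:136967619-136967868, plus strand: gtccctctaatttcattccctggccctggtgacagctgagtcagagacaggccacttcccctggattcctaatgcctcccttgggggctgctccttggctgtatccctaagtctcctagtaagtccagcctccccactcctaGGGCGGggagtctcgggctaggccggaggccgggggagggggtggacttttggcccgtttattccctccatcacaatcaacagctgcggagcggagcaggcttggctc
Cldn2, chrX:139800558-139800807, plus strand: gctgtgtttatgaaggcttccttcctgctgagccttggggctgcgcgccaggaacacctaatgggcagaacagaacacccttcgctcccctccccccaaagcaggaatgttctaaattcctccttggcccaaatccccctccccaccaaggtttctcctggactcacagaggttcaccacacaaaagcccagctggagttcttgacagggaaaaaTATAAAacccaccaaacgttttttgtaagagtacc
The TCF/LEF letters CTTTGNT matched in the Cldn4 window 123 bases before the start and in the inner Cldn18 window 227 bases before it. The GC box GGGCGG matched 44 bases before the Cldn4 start and 108 bases before the Cldn15 start, in a window of which 25 bases are exon of another Cldn15 transcript. The TATA box TATAAA matched 35 bases before the Cldn2 start. On either strand, CTTTGNT is found in 16% of the 32851 promoter windows of this length, GGGCGG in 32.7% and TATAAA in 12.4%, so none of these matches is rare. The CDX letters TTTATNG (9.81% of windows) and the GATA letters GATAAG (6.55%) matched in no window of these genes. The outer Cldn18 start (chr9:99717268-99717517, minus strand) has no match to any of these letters. Which Cldn18 start these cells used was not tested. Promoters were found for 7 of the 8 genes, all but Cldn23. A match describes the letters and does not show that a factor binds. Whether Wnt signalling acts on these genes was not tested.

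The cation pore claudins parted in the adenoma. Cldn15, a sodium pore, was nearly absent from adenoma-like cells, while Cldn2 over all adenoma-like cells overlapped the levels of crypt-like cells. Cldn15 stood at 8.13, 7.91, 5.71 and 11.2 CPM in adenoma-like cells against 138, 168, 199 and 160.2 in crypt-like cells. Every adenoma value lay below every crypt value. The fitted level in adenoma-like cells was 0.0476 of that in crypt-like cells (log2 difference −4.39 ± 0.22 SE, edgeR quasi-likelihood test over 24 sums with library as a block, Benjamini-Hochberg adjusted p = 1.65e-13). T cells and macrophages, which are no part of the epithelium, held Cldn15 at 0 to 14.5 CPM, a range that holds all 4 adenoma values. They were shallower, with medians of 2091 to 10058 UMIs per cell against 18030.5 to 34028 in adenoma-like cells. The range is thus no background of matched depth.

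Cldn2 stood at 168, 161, 171 and 194 CPM in adenoma-like and 167, 176, 215 and 205 in crypt-like cells. The ranges overlapped, and the difference was not called (log2 −0.24 ± 0.14, edgeR adjusted p = 0.203). DESeq2 called it lower at −0.34 (adjusted p = 0.0382). Cells with stomach-type transcripts (split below) were kept out of the crypt gate but not out of the adenoma gate. They made up 58.5% to 81.5% of adenoma-like cells. In the other adenoma-like cells Cldn2 stood at 146, 70.3, 83.8 and 151 CPM, below every crypt value. That comparison was not tested. Over the 8 claudins, 5 were called between adenoma-like and crypt-like cells, 2 higher and 3 lower, against 38.8% of the 11125 genes tested. Cldn18 is among them and is no support for the count, since it passed the filter on low counts only through the adenoma sums.

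Cldn4, which is bound by the enterotoxin of Clostridium perfringens as Cldn3 is, was high in adenoma-like cells and low in crypt-like cells. It stood at 479.6, 302, 209 and 248 CPM in adenoma-like cells and at 50.3, 34.6, 8.72 and 24.6 in crypt-like cells. The ranges did not overlap, although both were higher in kit 2 than in kit 3. The fit put Cldn4 10.1-fold higher in adenoma-like cells (log2 3.33 ± 0.55, edgeR adjusted p = 3.21e-05). T cells and macrophages held Cldn4 at 6.26 to 33.5 CPM, a range that holds 2 of the 4 crypt values. Here too the range came from shallower cells, since crypt-like cells had medians of 16088 to 42160 UMIs. After a share of free RNA was subtracted from each sum, the log2 difference was 4.02 (adjusted p = 0.00712).

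Cldn18 was found almost only in adenoma-like cells. They held 67, 179, 185 and 720 Cldn18 UMIs, which is 6.33, 17.7, 15.3 and 12.8 CPM. Crypt-like cells held 1, 0, 0 and 0 UMIs, where 3 UMIs would be 1.74 to 3.25 CPM. All adenoma values lay above these limits. Over all libraries the ratio of adenoma-like to crypt-like levels was 74.8 (exact 95% interval 13.4 to 2959, counting error only), and to all 5 other classes 33.5 (22.6 to 52.0, from 1151 against 25 UMIs). The test called Cldn18 higher (edgeR adjusted p = 6.26e-05), but it entered the test only because of the adenoma sums, so it had to differ. Cells with stomach-type transcripts had been kept out of the crypt gate, which bears on this gene directly. In the enterocyte-like cells of VApcMinL replicate 2, 13 Cldn18 UMIs were found, most of them (61.5%) in 1 cell.

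Cldn3 and Cldn7 were lower in adenoma-like cells. Cldn7, which binds Epcam at the lateral membrane, stood at 564, 589.7, 518 and 612 CPM in adenoma-like cells against 963, 1008, 1186 and 1046 in crypt-like cells. The adenoma level was 0.512 of the crypt level (log2 −0.97 ± 0.20, edgeR adjusted p = 0.000315). Cldn3, a sealing claudin, stood at 282, 361, 300.4 and 335 against 454, 464, 445 and 471. Its adenoma level was 0.65 of the crypt level (log2 −0.62 ± 0.19, edgeR adjusted p = 0.0105), a call that was lost with doubled gate minimums (adjusted p = 0.056) and in cells thinned to 1000 UMIs (adjusted p = 0.0847). In neither gene did the ranges overlap. Cldn23 was at 19.3, 14.9, 14.1 and 19.1 in adenoma-like and 16.5, 14.1, 7.56 and 8.22 in crypt-like cells, a difference that was not called (edgeR adjusted p = 0.129) but was called with doubled gate minimums (log2 1.25, adjusted p = 0.0114) and with the full crypt panel (log2 1.21, adjusted p = 0.015).

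**Figure D1:**
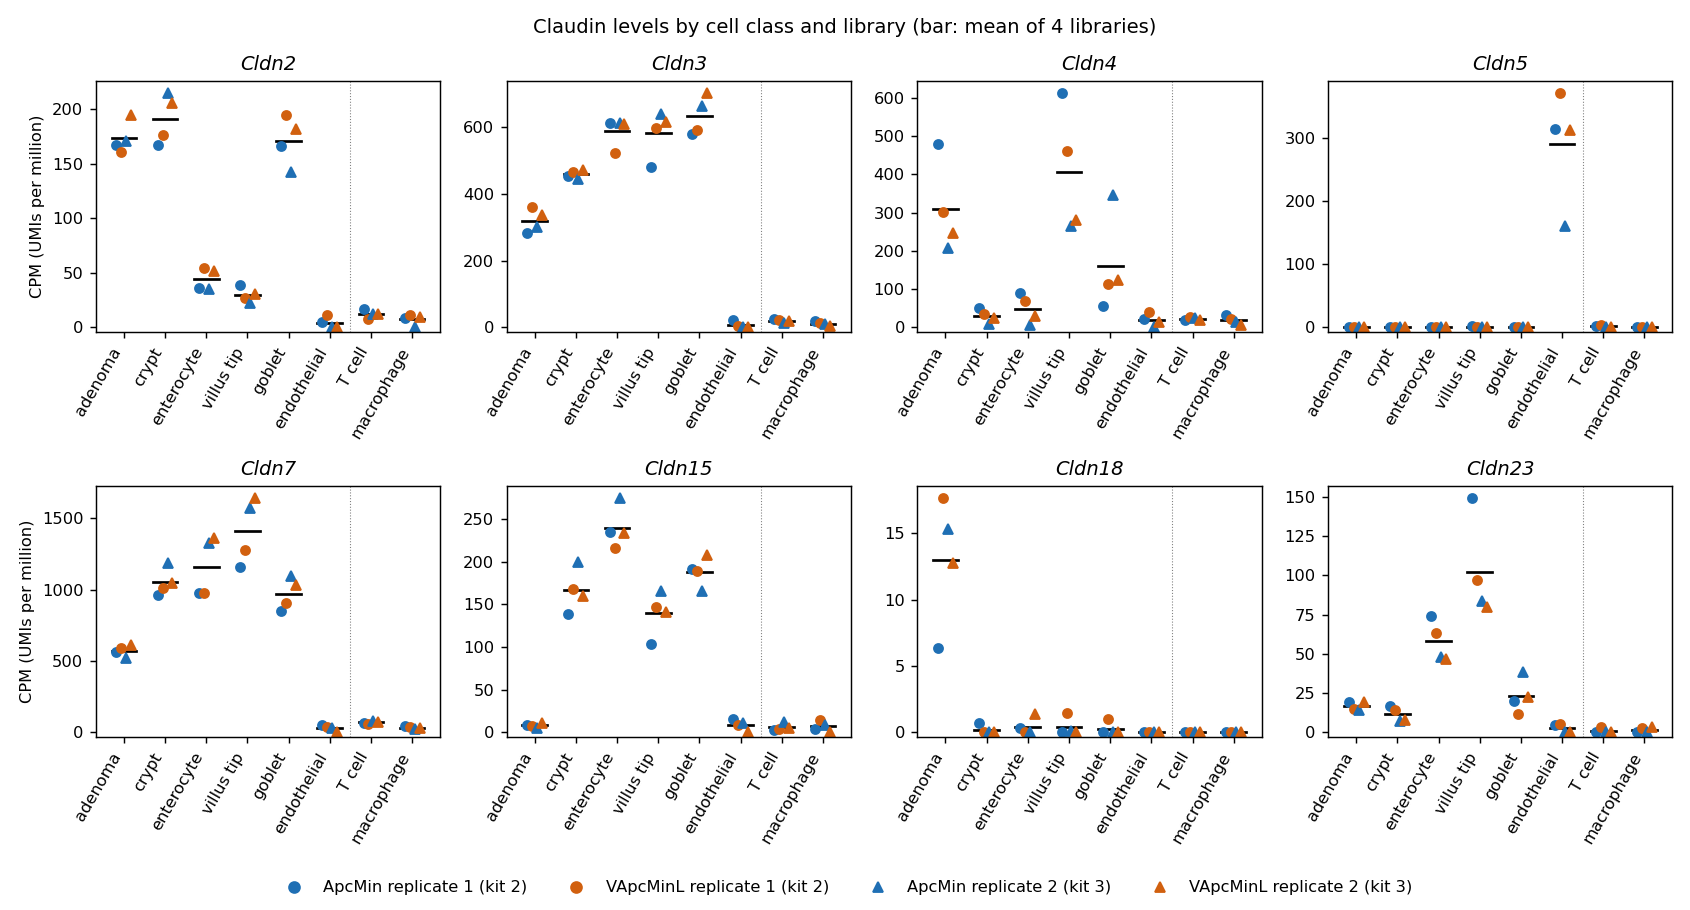
Level of each claudin (CPM, linear axes starting at 0) in 6 cell classes and, right of the dotted line, in T cells and macrophages as a background not matched for depth. Points are libraries (blue ApcMin, orange VApcMinL, circles kit 2, triangles kit 3) and bars are means of 4 libraries. Cldn15 is near 0 in adenoma-like cells, Cldn18 is above 1.46 only there, and Cldn5 is found in endothelial-like cells.

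From the crypt to the enterocyte, the pore claudins moved in opposite directions and Cldn23 rose most. Cldn2 fell from the crypt values above to 36.4, 54.4, 34.9 and 51.6 CPM in enterocyte-like cells (log2 −1.64 ± 0.15, edgeR adjusted p = 8.76e-10). Cldn15 rose to 235, 216, 275 and 233 (log2 1.02 ± 0.20, edgeR adjusted p = 6.14e-05). Neither gene's enterocyte range overlapped its crypt range. Cldn23 rose to 74.2, 63.2, 47.8 and 47.0 (fitted 7.17-fold, log2 2.84 ± 0.25, edgeR adjusted p = 5.1e-10). Cldn3 rose to 610.1, 521, 612 and 609, again with no overlap (fitted 1.79-fold, edgeR adjusted p = 0.000389). Mean levels of Cldn3 in crypt-like and enterocyte-like cells were 459 and 588 CPM, and 424 and 782 with the TMM factors of the fit. In all, 5 of the 8 claudins were called between enterocyte-like and crypt-like cells, 4 higher and 1 lower, against 65.1% of all genes.

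Cldn7 and Cldn4 were less clear in this step. Cldn7 stood at 978, 974, 1326 and 1363 in enterocyte-like cells, a range that overlapped that of crypt-like cells, and was called higher (log2 0.62 ± 0.20, edgeR adjusted p = 0.00741). Scaled to total UMIs, without the TMM factors that allow for differences in composition, the Cldn7 difference was 0.13 (adjusted p = 0.47) while the median of all genes moved from 0.16 to −0.33 on the log2 scale. Cldn4 stood at 90.0, 69.4, 6.53 and 30.9 and was not called (edgeR adjusted p = 0.101). Without ApcMin replicate 2 the Cldn4 difference was called (log2 1.11, adjusted p = 0.00301). The enterocyte-like cells of kit 3 held Fabp6, a gene of the ileum, at 2294 and 1113 CPM against 0.7 and 0.427 in kit 2, and the part of this difference in the Cldn4 values was not tested. The median share of mitochondrial UMIs was 11.1% to 13.3% per library in enterocyte-like and 4.81% to 7.11% in crypt-like cells. With a limit of 10% mitochondrial UMIs, 6 claudins were called in this contrast, against 57.2% of all genes, and Cldn4 was called (log2 1.58, adjusted p = 0.0169).

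At the villus tip, Cldn4 rose and both pore claudins fell. Cldn4 stood at 613, 460.4, 266 and 282 CPM in villus tip-like cells, above all enterocyte values (9.47-fold, log2 3.24 ± 0.51, edgeR adjusted p = 3.4e-05). In cells with at most 10% mitochondrial UMIs it stood at 782, 738, 619 and 430.3 at the tip and at 131, 106, 11.7 and 47.2 in enterocyte-like cells (log2 3.44, adjusted p = 8.4e-06). Under the same limit Cldn2 in the enterocyte-like cells of ApcMin replicate 2 was at 87.2 in place of 34.9. Cldn23 rose a further 1.77-fold to 149, 96.8, 83.8 and 79.6 (edgeR adjusted p = 0.00175). For both genes the tip and enterocyte ranges did not overlap. Cldn15 fell to 103, 147, 166 and 141 (log2 −0.71 ± 0.19, edgeR adjusted p = 0.00646), also without overlap. Cldn2 was at 39.1, 26.5, 22.2 and 30.5 (log2 −0.62 ± 0.16, edgeR adjusted p = 0.00494), with overlapping ranges, and it was not called without VApcMinL replicate 1 (adjusted p = 0.0934). Thus 4 of the 8 claudins were called in this step, 2 higher and 2 lower, against 28.9% of all genes. Cldn3 was at 480.1, 595, 639 and 615 and Cldn7 at 1156, 1274, 1572 and 1643, and neither was called (edgeR adjusted p = 0.938 and 0.23).

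In goblet-like against crypt-like cells, 3 of the 8 claudins were called, all higher, against 37.2% of all genes. Cldn3 stood at 579, 590.3, 662 and 701 (1.67-fold, edgeR adjusted p = 0.00354). Cldn4 stood at 55.9, 113, 346 and 124 (8.34-fold, log2 3.06 ± 0.58, edgeR adjusted p = 0.00021). In ApcMin replicate 2, a single goblet-like cell held 42.7% of the Cldn4 UMIs, and without this library the difference was 1.84 on the log2 scale (adjusted p = 0.000161). Cldn23 stood at 20.3, 11.8, 38.3 and 22.6 (2.73-fold, edgeR adjusted p = 0.000562), and without ApcMin replicate 2 the difference was 0.85 on the log2 scale (adjusted p = 0.0425). Cldn2, at 166, 194, 142 and 182, and Cldn7, at 848, 904, 1098 and 1032, overlapped their crypt ranges. Cldn15, at 191, 189.6, 165 and 207, was not called (edgeR adjusted p = 0.0732).

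**Figure D2:**
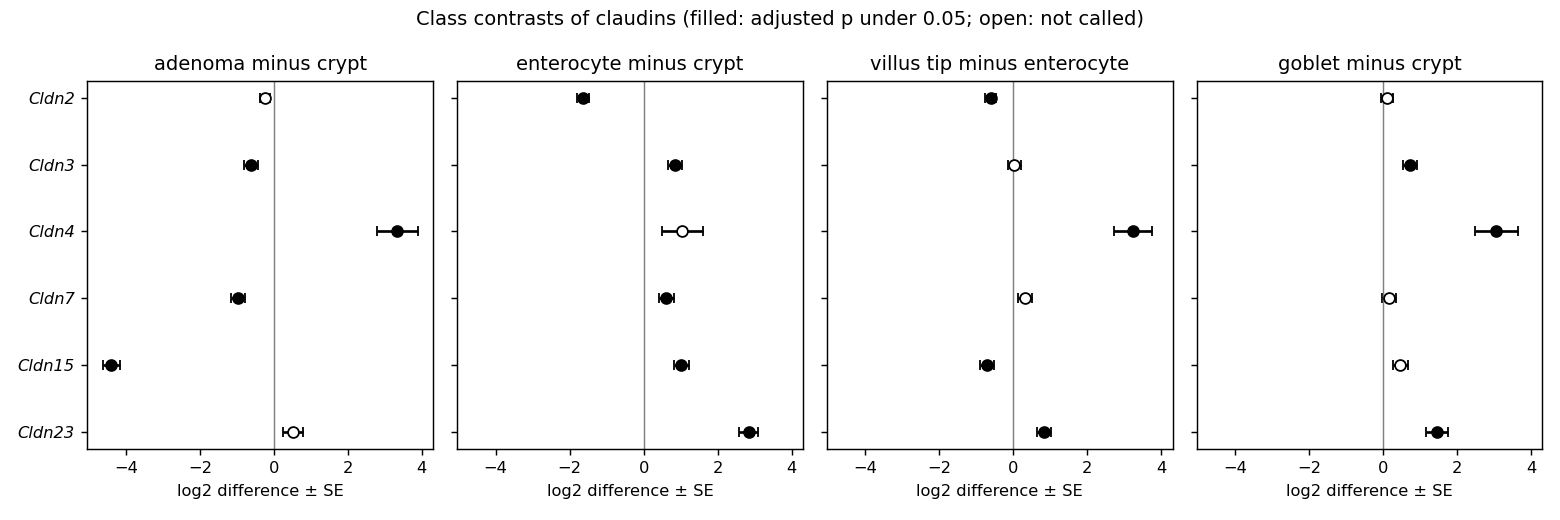
Log2 difference ± SE for 6 claudins in 4 contrasts of cell classes (edgeR, 24 sums of 4 libraries). Filled points have an adjusted p under 0.05. Cldn15 lies at −4.39 and Cldn4 at 3.33 between adenoma and crypt, and Cldn4 at 3.24 between villus tip and enterocyte. Cldn5 and Cldn18 are left out because they are near 0 in most classes.

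Cldn5, the claudin of vessel tight junctions, was found in endothelial-like cells. It stood there at 315, 372, 160.4 and 313 CPM, from 194, 132, 15 and 23 UMIs. In no library did any epithelial class exceed 1.78, and goblet-like cells held no Cldn5 UMI, which allows up to 1.58 to 5.08 CPM by library. The ratio of endothelial-like to epithelial cells was 1959 (exact 95% interval 1306 to 3067, from 364 against 25 UMIs, counting error only). Cldn5 entered the test through the endothelial sums, so its call (edgeR adjusted p = 4.51e-17) was bound to follow. In all, 7 of the 8 claudins were called between endothelial-like cells and the mean of the 5 epithelial classes, with 6 lower and Cldn5 alone higher, against 50.8% of all genes.

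The epithelial claudins were close to background in endothelial-like cells. Cldn7 stood there at 50.4, 39.5, 32.1 and 0, while T cells held 56.4 to 82.0. Cldn4 stood at 22.7, 39.5, 0 and 13.6, Cldn3 at 21.1, 5.64, 0 and 0, and Cldn15 at 16.2, 8.46, 10.7 and 0. Cldn2 stood at 4.87, 11.3, 0 and 0, and Cldn23 at 4.87, 5.64, 0 and 0, from 3 and 2 UMIs. These values lay within or below the range of T cells and macrophages, except Cldn4 in VApcMinL replicate 1 (39.5 against at most 33.5), Cldn15 in ApcMin replicate 1 (16.2 against at most 14.5) and Cldn23 in both kit 2 libraries (against at most 3.76). Cldn18 had no UMI in endothelial-like cells, which allows up to 4.87 to 40.9 CPM by library, or in T cells and macrophages. Leaving out the kit 3 endothelial sums left the count at 7, against 45.7% of all genes.

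The order of the classes differed from claudin to claudin. Besides the contrasts above, pairs of classes were compared in the same fit, where the share of all genes called was 43.7% for adenoma against goblet, 51.6% for enterocyte against goblet, 62% for villus tip against endothelial, 78% for adenoma against villus tip, 60.4% for villus tip against goblet, 53.6% for crypt against endothelial, 47.1% for adenoma against endothelial and 70.2% for crypt against villus tip. Cldn2 was highest in crypt-like, adenoma-like and goblet-like cells (191 ± 22.8, 173 ± 14.5 and 171 ± 22.6 CPM, SD, n = 4), which were not told apart, and then fell at each step to enterocyte, villus tip and endothelial. Cldn3 was highest in goblet-like, enterocyte-like and villus tip-like cells (633 ± 58.5, 588 ± 44.7 and 582 ± 70.6), which were not told apart, followed by crypt (459 ± 11.6), adenoma (319.5 ± 35.4) and endothelial, each step called.

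Cldn4 was highest in villus tip-like and adenoma-like cells (405 ± 164 and 309 ± 119.7 CPM, SD, n = 4), which were not told apart. Goblet-like cells (159.9 ± 128) differed from the tip by the test and were not told apart from the adenoma. The drop to enterocyte-like cells was called, and crypt-like and endothelial-like cells followed without a called difference between neighbours. Cldn7 was highest in villus tip-like and enterocyte-like cells (1411 ± 233 and 1160.3 ± 213), then in crypt-like and goblet-like cells (1051 ± 96.4 and 970.5 ± 115), and the drop to adenoma-like cells (571 ± 40.5) was called. Cldn15 was highest in enterocyte-like cells (239.9 ± 24.9), followed at a called step by goblet, crypt and villus tip (188 ± 17.3, 166 ± 25.2 and 139 ± 26.4), whose neighbours were not told apart, and then by endothelial-like (8.85 ± 6.75) and adenoma-like cells (8.25 ± 2.27), which were not told apart. Cldn23 was highest at the villus tip (102 ± 32.2), then in enterocyte-like (58.1 ± 13.1) and goblet-like cells (23.2 ± 11.0), each step called, and adenoma-like and crypt-like cells (16.9 ± 2.70 and 11.6 ± 4.41) were not told apart.

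Parts of this order changed in cells with at most 10% mitochondrial UMIs. Cldn4 was then called lower in adenoma-like than in villus tip-like cells (log2 −1.68, edgeR adjusted p = 0.00243, against 73% of all genes called). Cldn7 was called higher at the tip than in enterocyte-like cells (adjusted p = 0.0294). For Cldn15 the step from enterocyte to goblet was no longer called (adjusted p = 0.405), and the tip was called lower than goblet-like cells (adjusted p = 0.00111).

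Adenoma-like cells were also split by stomach-type transcripts such as Gkn1, Muc6 and Tff2, which mark gastric mucous cells, to ask whether Cldn18 goes with them. No claudin was used in the split. The libraries held 257, 388, 201 and 1089 cells with such transcripts, which is 60.05%, 81.5%, 66.8% and 58.5% of adenoma-like cells. Cldn18 stood at 10.3, 20.8, 20.7 and 20.97 CPM in cells with stomach-type transcripts and at 1.09, 2.36, 4.29 and 2.51 in the others. It was higher in the former in 4 of 4 libraries (7.32-fold, log2 2.87 ± 0.18, edgeR adjusted p = 7.75e-05). Depth did not go with this difference in a fixed direction, with median UMIs per cell of 19841, 18460, 34534 and 24046 with such transcripts against 24900, 17465.5, 30565.5 and 27854 without.

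The pore claudins again moved apart. Cldn2 stood at 184, 179, 213 and 229 CPM with stomach-type transcripts and at 146, 70.3, 83.8 and 151 without (1.79-fold, log2 0.84 ± 0.16, edgeR adjusted p = 0.0152). It was higher in 4 of 4 libraries, and was not called without ApcMin replicate 2 (adjusted p = 0.0764). Cldn15 stood at 3.84, 7.72, 4.80 and 5.75 with and at 13.7, 8.86, 7.58 and 18.1 without (log2 −1.28 ± 0.25, edgeR adjusted p = 0.0148). Nearly all of these Cldn15 values lie within the range of the shallower T cells and macrophages, 0 to 14.5. The call was lost without ApcMin replicate 1 (edgeR adjusted p = 0.0887) or without VApcMinL replicate 2 (edgeR adjusted p = 0.131). Cldn4 was at 514, 303, 219 and 268 with and at 434, 295, 187 and 222 without, higher in 4 of 4 libraries, and was not called (log2 0.18 ± 0.05, edgeR adjusted p = 0.0722). Of 7 claudins tested in this split 3 were called, against 9.82% of 11860 genes, and without VApcMinL replicate 1 the count was 5, against 19.5% of all genes, with Cldn4 (adjusted p = 0.0195) and Cldn7 (log2 −0.34, adjusted p = 0.00677) added.

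**Figure D3:**
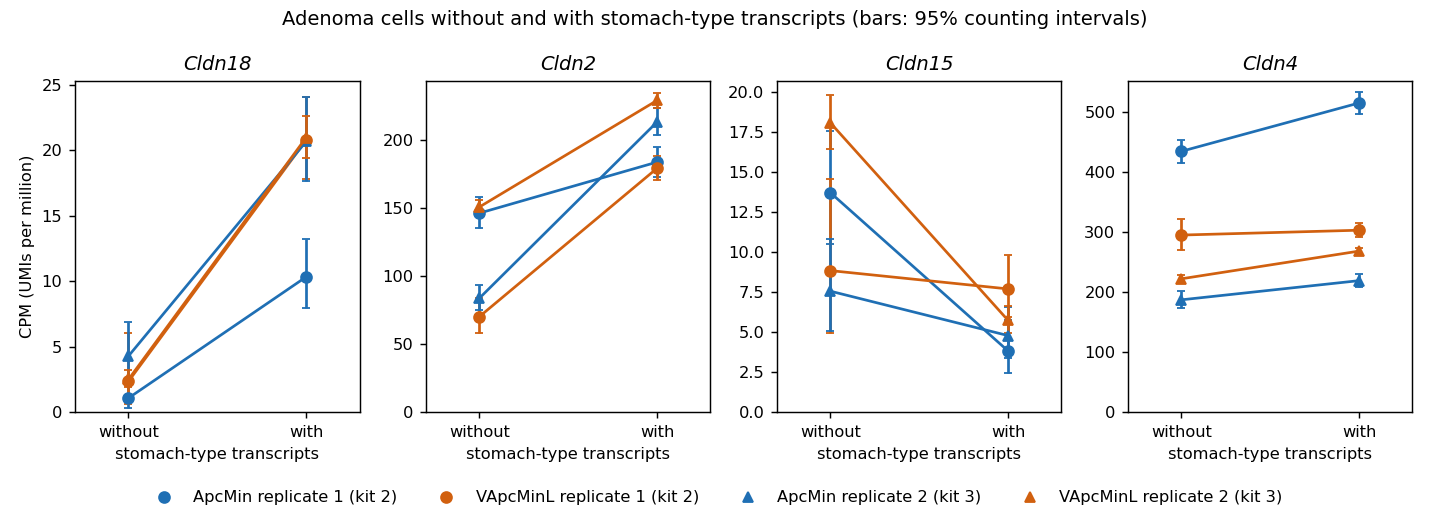
Levels of 4 claudins (CPM) in adenoma-like cells without and with stomach-type transcripts. Lines join the values of a library, and bars are 95% counting intervals. Cldn18 rises in all libraries, from at most 4.29 to at least 10.3, Cldn2 rises and Cldn15 falls.

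The share of cells with a UMI was compared at equal depth. Each cell was thinned to 1000 UMIs, because median depth ran from 2091 UMIs in T cells to 42160 in crypt-like cells. At that depth a Cldn4 UMI was found in 34.8%, 21.8%, 17.6% and 20.7% of adenoma-like cells and in 44.3%, 23.8%, 22.2% and 20.3% of villus tip-like cells. In crypt-like cells it was found in 2.74%, 2.04%, 0% and 3.90%, and in T cells in 3.31%, 1.92%, 2% and 3.25%. The crypt shares lay close to the T cell shares, above them in the VApcMinL libraries and below them in the others. T cells were shallower before thinning, so they are no background of matched depth, and whether the crypt UMIs are free RNA was not tested. In ApcMin replicate 2, 0 of 36 cells allows a share of up to 8.33%. The intervals of adenoma-like cells (exact 95%, 30.3% to 39.5% and 13.5% to 22.4% for the highest and the lowest library) lay above all crypt values. Without thinning, 80.7% to 94.6% of adenoma-like cells held a Cldn4 UMI, as did 19.5% to 45.2% of crypt-like cells and 4.64% to 6.73% of T cells.

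Cldn15 showed the reverse. Of adenoma-like cells thinned to 1000 UMIs, 0.701%, 0.840%, 0.332% and 0.967% held a Cldn15 UMI, against 15.1%, 12.2%, 11.1% and 22.1% of crypt-like cells. In T cells the share was 0.662% in ApcMin replicate 1 and 0 elsewhere, which allows up to 1.44% to 6.00% by library. The adenoma shares lie near or within these values. T cells were shallower before thinning, with medians of 2091 to 2961 UMIs against 18030.5 to 34028, so they are no background of matched depth. Without thinning, the Cldn15 shares were 12.2% to 17.3% in adenoma-like, 85.7% to 97.2% in crypt-like and 0.662% to 4% in T cells, at these unequal depths. A Cldn5 UMI was found in 18.9%, 13.2%, 22.2% and 28.6% of endothelial-like cells at equal depth, so most of them held none at this depth. Cldn18, at 0% to 2.33% of thinned adenoma-like cells, is too sparse for shares, and unthinned 9.81% to 16.3% of adenoma-like cells held a UMI.

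**Figure D4:**
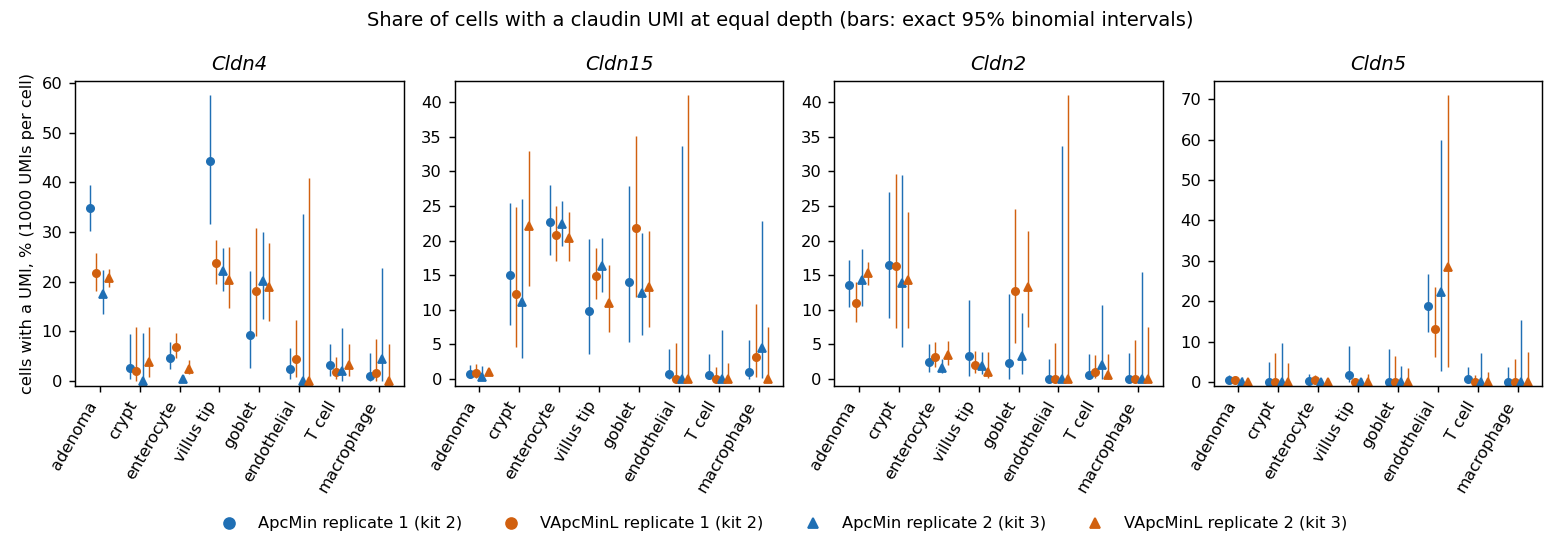
Percent of cells with at least 1 UMI of Cldn4, Cldn15, Cldn2 or Cldn5 after thinning each cell to 1000 UMIs, by class and library, with exact 95% binomial intervals. Adenoma-like cells lie at 17.6% to 34.8% for Cldn4 and under 1% for Cldn15. T cells and macrophages, which were shallower before thinning, are shown beside them.

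The genotype comparison asked whether loss of Lef1 from the epithelium moved any claudin. No claudin was called between the libraries labelled VApcMinL and ApcMin. In adenoma-like cells 0 of the 7 tested were called by edgeR with the kit as a block, against 0% of all 12686 genes, of which 25 had an unadjusted p under 0.05. No difference at all would put a share of about 0.05 of genes there, far more than 25, so the fit was strict. With 2 libraries per group, the lack of a call does not show that no claudin moved. DESeq2 called 3 of the 12686 genes and none of the claudins, and no claudin had an unadjusted p under 0.05. In crypt-like cells 0 of 6 claudins were called against 0.0455% of genes, and in enterocyte-like cells 0 of 6 against 0.0289%. DESeq2 called no claudin in either class, and at an unadjusted p under 0.05 edgeR had 0 claudins in crypt-like cells and 1, Cldn2, in enterocyte-like cells. The fitted log2 differences in adenoma-like cells ran from −0.22 for Cldn4 to 0.58 for Cldn18, with SEs of 0.205 to 0.488.

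The within-kit differences in adenoma-like cells mostly changed sign between kits. The log2 difference of VApcMinL and ApcMin for Cldn4 was −0.81 in kit 2 and 0.35 in kit 3, for Cldn18 1.33 and −0.16, and for Cldn15 −0.18 and 1.07. Cldn3 was the exception, higher in both kits at 0.21 and 0.26 (fitted log2 0.25 ± 0.20, edgeR unadjusted p = 0.3). Lef1, too, differed in opposite directions in the 2 kits. Cldn18 had the signs of Lef1, and Cldn2, Cldn4, Cldn7, Cldn15 and Cldn23 the opposite signs, each from 1 pair of libraries per kit and with no test. Any gene that changes sign between 2 kits must match or oppose Lef1, so nothing is read from these signs. In crypt-like cells the fitted differences ran from −0.10 for Cldn23 to 0.24 for Cldn4.

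In enterocyte-like cells Cldn2 had the lowest p of the claudins. It was at 54.4 and 51.6 CPM in the libraries labelled VApcMinL and at 36.4 and 34.9 in those labelled ApcMin, so the groups did not overlap (log2 0.56 ± 0.17, edgeR unadjusted p = 0.00877, adjusted p = 0.9996). The difference was 0.57 in kit 2 and 0.47 in kit 3, and it was 0.09 in cells with at most 10% mitochondrial UMIs. Cldn2 is X-linked, and Xist was higher in the same libraries, at 418 and 128 CPM in the VApcMinL enterocyte-like cells against 0 and 0.381. Genotype and sex cannot be told apart here. Xist was also higher in the VApcMinL adenoma-like and crypt-like cells. There the Cldn2 differences in kits 2 and 3 were −0.20 and 0.29 in adenoma-like and −0.01 and −0.06 in crypt-like cells. Cldn4 in enterocyte-like cells went from −0.38 in kit 2 to 2.11 in kit 3.

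**Figure D5:**
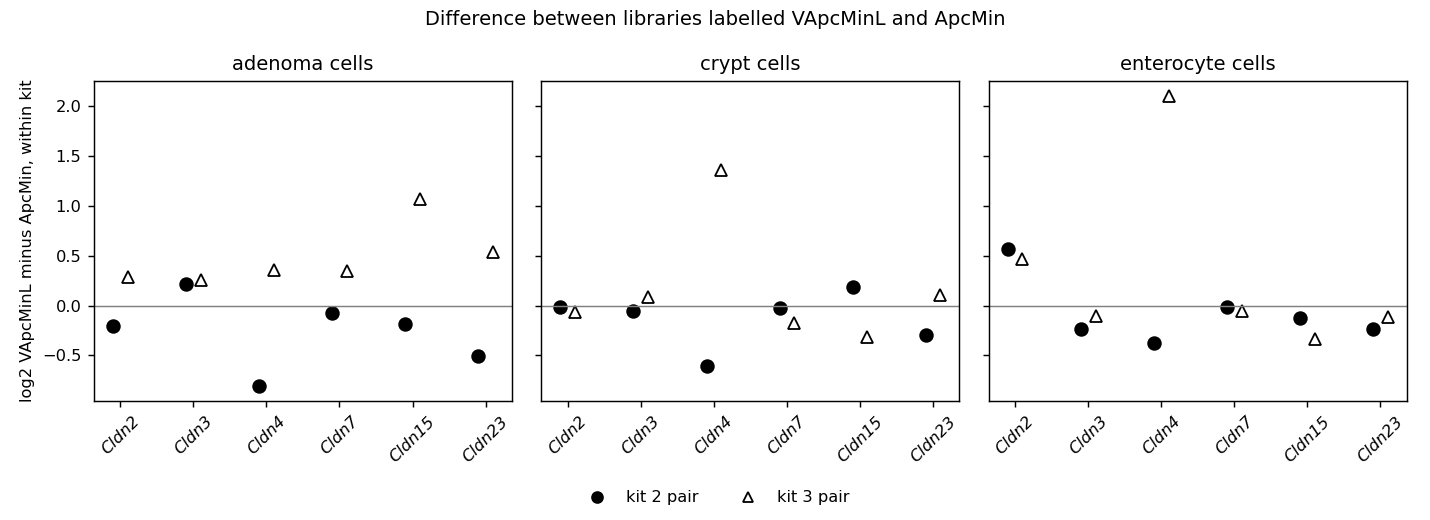
Log2 difference between the library labelled VApcMinL and the one labelled ApcMin within each kit, for 6 claudins in 3 cell classes. Filled circles are kit 2 and open triangles kit 3, each from 1 pair of libraries and with no error. In adenoma-like cells 5 of the 6 genes lie on opposite sides of 0 in the 2 kits.

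Other tight junction genes were counted beside the claudins from a list of 22, of which 20 were tested. Between adenoma-like and crypt-like cells 9 were higher, 5 lower and 6 not called, against 38.8% of all genes called, with a median log2 difference of 0.45 against 0.07 over all genes and −0.23 for the 8 claudins. The largest called changes were Cgnl1, a cingulin-like plaque protein (2.38 ± 0.48, edgeR adjusted p = 0.000292), and Tjp3, a scaffold of the ZO family (−0.92 ± 0.14, adjusted p = 8.17e-06). From crypt to enterocyte 12 were higher and 2 lower, near the 65.1% of all genes called, with Pard6b, a polarity protein, at 2.49 and Cgnl1 at −2.19. From enterocyte to villus tip 12 were higher and 1 lower, against 28.9%, with the adhesion molecule Jam2 at 2.83 (45 against 11 UMIs) and the scaffold Magi1 at −0.49. In goblet-like against crypt-like cells 7 were higher and 0 lower, near the 37.2% of all genes, with Jam2 called at 5 against 0 UMIs, too few for a fold. In endothelial-like cells 6 were higher, led by Esam, an adhesion molecule of vessels, at 8.18, and 13 lower, with Patj at 0 UMIs, against 50.8% of all genes. Between adenoma-like cells with and without stomach-type transcripts 3 were higher and 1 lower, against 9.82%, with Esam at 0.80 and Marveld3 at −0.63. None was called between genotypes in any class.

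Of 8 adherens junction and desmosome genes, 2 were higher, 1 lower and 5 not called between adenoma-like and crypt-like cells, near the 38.8% of all genes called. Cdh17, a cadherin of the intestinal epithelium, was lower (log2 −1.54 ± 0.18, edgeR adjusted p = 2.99e-07), and Cdh5, known from vessels, was higher (5.01 ± 0.50, edgeR adjusted p = 1.64e-08). Adenoma-like cells held 6457 Cdh5 UMIs while holding 11 Cldn5 UMIs. From crypt to enterocyte 6 were higher and 0 lower, against 65.1% of all genes, and from enterocyte to villus tip 7 and 0, against 28.9%. In goblet-like against crypt-like cells 5 were higher and 0 lower, against 37.2%, and in the stomach-type split 1 was higher and 1 lower, against 9.82%. Cdh5, Cdh1 and Epcam were gate genes, so the counts for endothelial-like cells (1 higher, 6 lower, against 50.8% of all genes) follow in part from the gates.

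The genes whose pattern was most like that of each claudin were taken by the Pearson correlation of log2 CPM over the 24 sums of 4 libraries and 6 classes, among 5737 genes. The sums share libraries and include endothelial-like cells, which are low in every epithelial gene, so values near 1 are common. They were Esrp1 (0.974) for Cldn2, Prss32 (0.986) for Cldn3, S100a14 (0.892) for Cldn4, Meox1 (0.992) for Cldn5, Rps6ka1 (0.986) for Cldn7, Lypd8 (0.959) for Cldn15, Sbspon (0.846) for Cldn18 and Igsf23 (0.983) for Cldn23. Among the claudins themselves, Cldn3 and Cldn7 had r = 0.95 over all 24 sums and 0.92 over the 20 epithelial sums. Cldn2 and Cldn23 had 0.61 over all sums but −0.91 over the epithelial ones, and Cldn15 and Cldn18 had −0.32 and −0.83. The positive value of Cldn2 and Cldn23 over all sums thus comes with the endothelial-like cells, where both are low.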

How the data were processed

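The authors deposited raw UMI counts per gene and barcode, which their notes place with Cell Ranger 2.1.1 and mm10 (GRCm38). Only genes listed in all 4 tables were used, and the kit 2 tables list 27998 genes against 31053 in kit 3. Barcodes with at least 1000 UMIs and at most 20% mitochondrial UMIs were used, a limit that removed 27.3% to 62.9% of barcodes per library.

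Classes were gated on marker panels, with minimums set from the panels' own values, and Gkn3 and Olfm4 were dropped from the crypt panel after their values had been seen. The members and gene lists were chosen with earlier results of these data known. Named genes were the 8 claudins, the other claudins, and from the other lists those called with the largest change in each direction.

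For each library, the UMI counts of a class's cells were summed and tested with edgeR 4.0.16 in R 4.3.3 (TMM, filterByExpr with a minimum count of 10, quasi-likelihood test, Benjamini-Hochberg over all genes, called at 0.05). Class and stomach-type fits had library as a block, and genotype fits had the kit. Libraries of different genotype come from different mice, and the study describes separate experiments, but the labels do not tie a library to its animals. In the class and stomach-type fits, p-values measure how differences between sums of the same library vary over libraries. In the genotype fits they measure the spread between libraries that the kit does not take up. Either spread may be technical. Kit and replicate number coincide in the labels, which pairs the libraries, and the deviations of same-numbered libraries from their group means had r = 0.113 over 12686 genes in adenoma-like cells.

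Counting intervals are exact and cover counting error only. A count of 0 was given a limit of 3 counts. Promoters came from RefSeq, coordinates from GENCODE release M21. Scripts were tested on simulated data. Alternatives were DESeq2 1.42.0, other size factors, total UMIs without TMM, no filter, other cell limits and gates, thinning, doublets removed (Scrublet in scanpy 1.11.5), free RNA subtracted and leaving out each library. Doublets were kept in the reported values.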

Additional observations from a re-analysis of the deposited data

Results flagged for a closer look

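Barcodes of 10 to 100 UMIs lie below the minimum set for cells. They enter the comparisons above only as the profile of the free RNA that was subtracted. Cldn5 stood out in them. Its level there was 402 CPM in ApcMin replicate 1, 376 in VApcMinL replicate 1, 130.4 in ApcMin replicate 2 and 139 in VApcMinL replicate 2. In each library this is above every epithelial class, where Cldn5 was at most 1.78, and in kit 2 it is also above the endothelial-like cells of the same library (315 and 372). T cells and macrophages held Cldn5 at 0 to 3.76 CPM in the 4 libraries. Cldn7 stood in the same barcodes at 345 to 692 CPM, and at 22.3 to 82.0 in T cells and macrophages. What these barcodes hold was not tested. The free RNA share was estimated from enterocyte genes in T cells and macrophages relative to these barcodes. Whether that share and the subtraction hold for other genes, such as Cldn5, was not tested. No outlying library could be looked for, since groups held 2 libraries each.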

How the results depend on the processing

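Of the counts of claudins called, 4 moved by over 1.5 times. Adenoma against crypt went from 5 to 3 in cells thinned to 1000 UMIs, against 17.9% of all genes called. Enterocyte against crypt went from 5 to 3 with thinning (52.6% of all genes) and to 3 with free RNA subtracted (61.7%). The stomach-type split went from 3 to 5 without VApcMinL replicate 1 (19.5%). Thinning left 3134 genes tested in the class fits, and Cldn18 was not tested there, with doubled gate minimums or with a limit of 10% mitochondrial UMIs. Leaving out each library gave 5 to 5, 4 to 6, 3 to 4, 3 to 4, 7 to 7 and 2 to 5 claudins called for adenoma against crypt, enterocyte against crypt, villus tip against enterocyte, goblet against crypt, endothelial against epithelial and the stomach-type split. In the same order, the share of all genes called was 29.7% to 33.9%, 59.4% to 60.5%, 19.8% to 22.4%, 23.3% to 32.8%, 39.3% to 49.6% and 2.99% to 19.5%. With no replicate block, 0 claudins were called between genotypes in all 3 classes, as in the paired fit, while the calls over all genes went from 4 to 0 in crypt-like and from 3 to 0 in enterocyte-like cells. Leaving out a library from a genotype fit leaves no residual degrees of freedom, so it gave values with no test.

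The differences that changed sign were not called in the reported fits or with the changed sign. With the reported sign, Cldn2 in adenoma against crypt was called by DESeq2, and Cldn7 in the stomach-type split under the settings given here. The cause was not tested. Cldn2 in adenoma against crypt was 0.035 when thinned. Cldn3 in villus tip against enterocyte was −0.027 with free RNA subtracted, −0.037 without the filter and −0.013 with total UMIs (−0.035 to 0.18 leaving out a library). Cldn2 in goblet against crypt was −0.48 when thinned, −0.013 with doubled gate minimums and −0.18 with total UMIs (−0.019 to 0.21), and Cldn7 was −0.12 with total UMIs. In the stomach-type split, leaving out a library took Cldn3 from −0.029 to 0.19 and Cldn7, not called at −0.13, from −0.34 without VApcMinL replicate 1, called, to 0.010 without VApcMinL replicate 2, not called. Thinning gave Cldn7 −0.52, called. Between genotypes in adenoma-like cells, Cldn2 was −0.25 when thinned (−0.16 to 0.26), and Cldn23 was −0.24 when thinned, −0.010 with doubled gate minimums and −0.013 with no replicate block (−0.46 to 0.51). There Cldn4 ran from −0.77 to 0.32, Cldn7 from −0.033 to 0.32, Cldn15 from −0.13 to 1.04 and Cldn18 from −0.19 to 1.38. Between genotypes, Cldn2, Cldn3, Cldn4, Cldn15 and Cldn23 in crypt-like cells and Cldn3, Cldn4 and Cldn7 in enterocyte-like cells also changed sign under at least 1 alternative, with no call.

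Calls lost beside those in the report were Cldn3 (adjusted p = 0.0997), Cldn7 (0.388), Cldn2 (0.579) and Cldn15 (0.0678) on thinning in the steps from crypt to enterocyte and to tip, Cldn7 (0.0779) and Cldn15 (0.0889 and 0.253) with free RNA subtracted, Cldn7 in enterocyte against crypt without VApcMinL replicate 1 (0.0506), and Cldn15 in the stomach-type split with doubled gate minimums (0.0576). A limit of 10% mitochondrial UMIs moved the mean levels of Cldn2 and Cldn15 in enterocyte-like cells to 72.7 and 207 CPM and those of Cldn3, Cldn4, Cldn15 and Cldn23 at the villus tip to 723, 642, 89.0 and 139. Doubled gate minimums moved Cldn2 and Cldn15 at the tip to 20.9 and 108 and Cldn23 in crypt-like cells to 7.06. Over all genes, alternatives called 562 to 4800 in adenoma against crypt (4322 reported), 1647 to 7668 in enterocyte against crypt (7238), 803 to 3997 in villus tip against enterocyte (3217), 1047 to 4790 in goblet against crypt (4138), 1543 to 6520 in endothelial against epithelial (5648) and 104 to 2293 in the stomach-type split (1165). Between genotypes they called 0 to 3 genes in adenoma-like (0), 0 to 39 in crypt-like (4) and 0 to 26 in enterocyte-like cells (3). Total UMIs without TMM, an alternative chosen after seeing the data, as were subtracting free RNA, refitting the pairs of classes under the mitochondrial limit, the full crypt panel and leaving out kit 3 endothelial sums, split the calls of enterocyte against crypt into 2619 higher and 4713 lower (4001 and 3237 with TMM), of goblet against crypt into 1610 and 3180 (2354 and 1784) and of endothelial against epithelial into 4197 and 1847 (2699 and 2949).

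The main limits are 4 libraries, sex tied to genotype, few endothelial-like cells in kit 3 and free RNA, estimated at 6.55% to 16.1% of the UMIs of T cells and macrophages.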

Other observations

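Among the 25 claudins outside the list, 12 had no UMI in the 6 classes, 8 had 1 to 33 and 5 had more. Cldn12 was the only one of them tested between classes. It was lower in adenoma-like than in crypt-like cells (log2 −0.74 ± 0.23, edgeR adjusted p = 0.0111) and lower at the villus tip than in enterocyte-like cells (−0.61 ± 0.22, adjusted p = 0.0388). Cldn6, a claudin known from embryonic epithelium, was found in adenoma-like cells of every library, at 33, 40, 37 and 149 UMIs (3.12, 3.95, 3.06 and 2.64 CPM), against 0 UMIs in crypt-like cells and 4 in the other classes together. Cldn1 was found only in adenoma-like cells, at 1, 36, 31 and 49 UMIs, so it was near absent from ApcMin replicate 1. Since the crypt-like sums are smaller than the adenoma-like ones, 3 UMIs there would be 1.74 to 3.25 CPM, about the Cldn6 level itself. Cldn8 stood at 0.567, 1.19, 1.24 and 0.62 CPM in adenoma-like and at 0.689, 1.08, 0 and 2.35 in crypt-like cells (68 and 6 UMIs), so the ranges overlapped. Cldn10 stood at 0.661, 0.297, 1.74 and 0.656 CPM in adenoma-like cells (68 UMIs) and had 1 UMI in crypt-like cells, at 1.08 CPM. These genes were picked after their values were seen.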
